A study of Brassica rapa with 8 samples.

Results

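The silique, the fruit of *Brassica rapa*, was compared with the vegetative organs leaf, root and stem. The comparison used 6 of the 8 RNA-seq samples of the series: 1 of silique taken 15 days after pollination, and 2 of leaf, 2 of root and 1 of stem from plants of 7 weeks. All came from the Chinese cabbage line Chiifu-401-42, which is inbred. The methods of the study state that both leaf samples, and likewise both root samples, came from separate batches of plants. The batch of the silique and stem samples and the age of the plants that bore the siliques are not given in the sources used here, and neither is whether seeds were separated from the fruit wall. Organ, age and library can therefore not be told apart in silique. The remaining samples, 1 of flower and 1 of callus, served as a readout outside the rule.

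A gene was called raised in silique where its FPKM plus 1 was at least 4-fold above that of every one of the 5 vegetative samples, and lowered where it was at least 4-fold below all 5. FPKM is the number of sequenced fragments scaled to the length of the gene model and to the size of the library, so it can be compared between genes per length. Adding 1 keeps genes near 0 from giving large folds, and it understates the change of low genes. Of 38200 gene models, 1342 were raised (3.51%), 899 were lowered (2.35%) and 35959 were neither. The latter include genes too low in all 6 samples to be called either way.

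As background, a silique consists of a green, photosynthetic fruit wall that encloses the seeds, in which the embryo grows within the endosperm and the seed coat. Seeds of *Brassica* lay down oil and storage proteins and pigment the seed coat, while vegetative organs take up light, water and minerals and build the transport tissue of the plant. The deposited table pairs no identifier with a gene name. A table of RefSeq names matched 1 identifier, Bra000116, named SWEET9 there, which in Arabidopsis encodes a sugar exporter of nectaries. It was listed at 0 in silique and in all 5 vegetative samples and had an FPKM of 134 in flower, so it was neither raised nor lowered. The tissue labels could therefore not be checked against marker genes, and the genes below are described by level, profile and position. At most 2 raised and 2 lowered identifiers are given.

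The depth behind each sample was derived from the width of the deposited confidence intervals. It amounted to 7731268 fragments in silique, the shallowest of the 6 samples, 8488929 in stem and up to 15664794 in root 1. The 4 highest genes took 8.89% of the summed FPKM in silique, between 1.40% and 3.63% in the vegetative samples other than leaf 2, and 14.0% in leaf 2. Between the samples of 1 organ, 120 genes (0.314%) of leaf and 122 genes (0.319%) of root lay 4-fold or more apart on FPKM + 1. In these bulk samples, fewer cells of a type and less RNA per cell cannot be told apart.

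**Figure D1:**
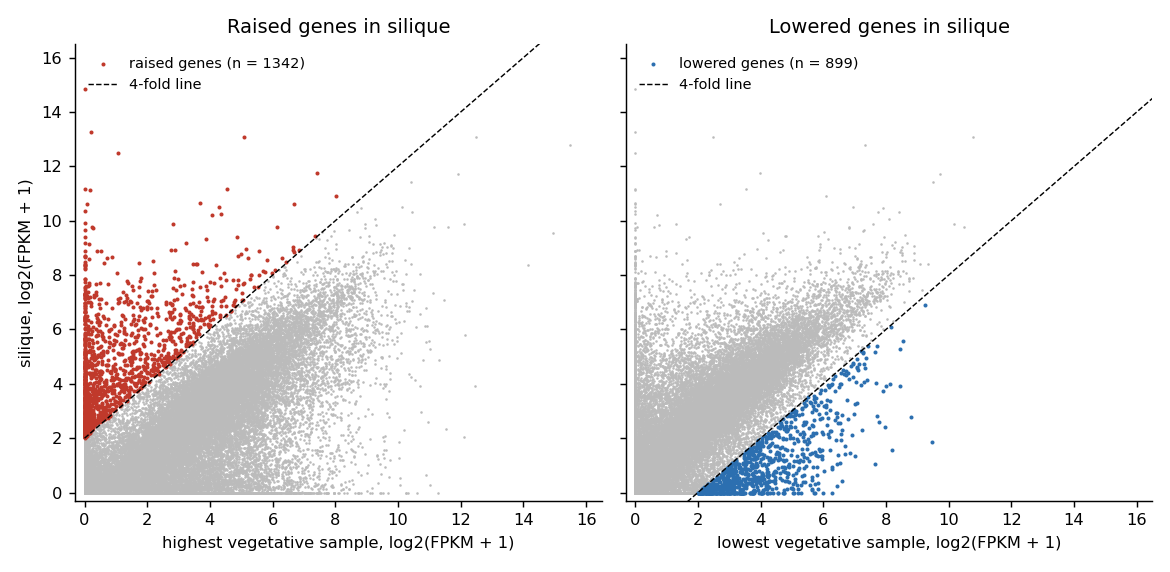
Level of each gene in silique, as log2(FPKM + 1), against its highest (left) or lowest (right) vegetative sample on the same scale. Each point is 1 of 38200 genes, and the dashed line marks a 4-fold difference. The 1342 raised genes lie on or above the left line and the 899 lowered genes on or below the right line. The distance below the right line is bounded, since a fold on FPKM + 1 cannot exceed the lowest vegetative FPKM plus 1.

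Raised genes spanned a wide range of levels in silique, from an FPKM of 3.06 to 29280 with a median of 23.3. Their level was up to 5 for 122 genes, above 5 and up to 50 for 802, above 50 and up to 500 for 388 and above 500 for 30. Among the abundant transcripts of silique, 30 of the 68 genes above FPKM 500 (44.1%) and 17.4% of the 2396 genes above 50 were raised, shares that the rule itself favours because it requires a level in silique. Of the 10 genes with the highest FPKM in silique, 6 were raised. Together the raised genes held 24.6% of the summed FPKM of silique. In the vegetative samples the same genes held between 0.328% (leaf 2) and 0.464% (root 2).

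Most of the raised genes had little or no signal in vegetative organs. In all 5 vegetative samples, 835 of them were under FPKM 1, and 374 (27.9%) were listed at 0, as were 11.4% of all genes. The rule chose raised genes for low vegetative values, which favours the higher share. Another 172 had an FPKM of at least 1 in all 5 vegetative samples, so that silique differed from them in amount. The remaining 335 reached FPKM 1 in some vegetative samples. The highest vegetative sample of a raised gene was a root sample for 541 genes, a leaf sample for 230 and stem for 197, and the other 374 are those listed at 0. This split is on values as deposited, and root and leaf have 2 samples each where stem has 1. The excess over the highest vegetative sample was at least 8-fold for 776 raised genes, at least 16-fold for 460 and at least 64-fold for 130. At the edge of the rule, the last raised gene stood at 4.0001-fold and the next gene outside at 3.9998-fold. Between 3-fold and 4-fold lay 466 further genes.

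Bra025046 was the raised gene with the highest FPKM in silique. The table places it on Scaffold000046 at 1482287 to 1483980. Silique had an FPKM of 29280 (95% confidence interval 29178 to 29383), and the gene was listed at 0 in leaf 1, leaf 2, root 1, root 2 and stem. No fold is given against these zeros, and no test for this or the other named genes, since the same values chose them and silique has 1 library. The gene alone took 4.62% of the summed FPKM of silique. In the tissues outside the rule it had 0.818 in flower (0.325 to 1.31) and was listed at 0 in callus.

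Bra034904 had the largest fold among the 172 raised genes with an FPKM of at least 1 in every vegetative sample. It is on Scaffold000099 from 442598 to 444071. Against 8596 in silique, the vegetative FPKM was 5.24 in leaf 1, 4.55 in leaf 2, 25.5 in root 1, 32.8 in root 2 and 19.2 in stem. Silique thus had 262 times the FPKM of the highest vegetative sample, root 2. Root (29.2 ± 5.15, SD, n = 2) lay above leaf (4.89 ± 0.486, SD, n = 2), and the 2 samples of each organ lay close together beside the distance to silique. In flower the FPKM was 56.1, above every vegetative sample, and in callus it was 7.57. The gene ranked 4 in silique by FPKM.

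Lowered genes had to be present in every vegetative sample, with a lowest vegetative FPKM of 3.01 to 709 and a median of 13.1. In silique their median was 0.616, 160 of them were listed at 0 and 545 were under FPKM 1. They held 0.380% of the summed FPKM of silique and between 6.82% (leaf 2) and 11.3% (root 1) of that of the vegetative samples. Among the 1182 genes above FPKM 50 in all 5 vegetative samples, 139 (11.8%) were lowered, against 2.35% of all genes. The rule itself favours the higher share because it requires a level in every vegetative sample. Not all lowered genes were near 0 in silique, since 115 kept an FPKM above 5 there and 2 kept one above 50. The shortfall was at least 8-fold for 354 lowered genes, at least 16-fold for 129 and at least 64-fold for 7. On FPKM + 1 this fold cannot exceed the lowest vegetative FPKM plus 1, so its reach is not set against that of raised genes. The lowest vegetative sample was leaf 2 for 400 of them, stem for 200 and root 2 for 197, and it was leaf 1 for 57 and root 1 for 45. The highest vegetative sample belonged to root for 469, to leaf for 224 and to stem for 206. Leaf and root have 2 samples each and stem has 1. The samples also differ in scale. The ratio to the geometric mean of the 6 samples was taken over genes with a lower confidence bound above 0 in all 6. Its median was 0.912 in silique, 0.732 in leaf 2 and 0.934 in leaf 1. It was 1.02 in root 2, 1.23 in root 1 and 1.31 in stem. The part of scale in these counts was not tested. At the edge, the last lowered gene stood at 4.002-fold and the next gene outside at 3.9968-fold.

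Bra032937 was the lowered gene with the highest minimum over the vegetative samples, and it also had the largest fold. It is on Scaffold000085 from 64510 to 65958. Its FPKM was 2.68 in silique (95% confidence interval 1.54 to 3.82), 914 in leaf 1, 776 in leaf 2, 709 in root 1, 742 in root 2 and 1048 in stem. The 5 vegetative samples lay within a narrow band, and the lowest of them had 265 times the FPKM of silique. Flower, with 386, lay below them and callus, with 1337, above them.

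Bra016719 had the next largest fold among the lowered genes. It is on Scaffold000020 from 2030554 to 2031153. Its FPKM was 1.97 in silique (0.724 to 3.21), 746 in leaf 1, 646 in leaf 2, 329 in root 1, 292 in root 2 and 334 in stem. Leaf was the highest vegetative organ, and root and stem lay close to each other. Flower had 1554, more than any vegetative sample, and callus had 16.4.

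**Figure D2:**
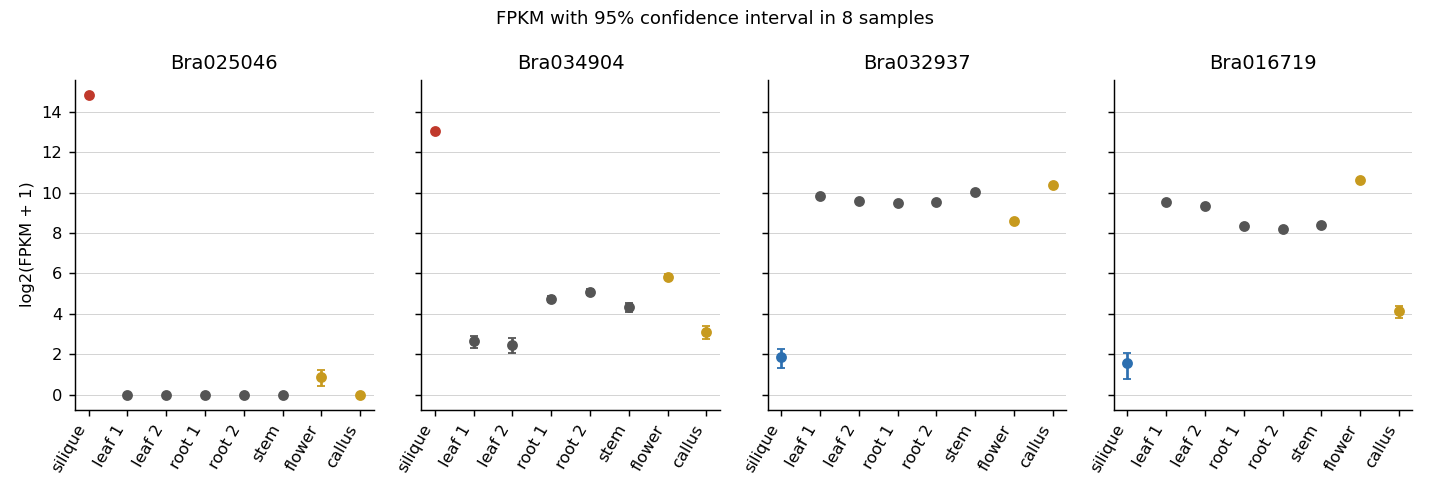
Level of the 2 raised and 2 lowered genes described above in each of 8 samples, as log2(FPKM + 1), with the deposited 95% confidence interval as bars that are often smaller than the point. Silique is red or blue, the 5 vegetative samples are grey, and flower and callus are yellow. Silique stands apart from all 5 vegetative samples in each panel, and flower is above the vegetative samples for Bra034904 and Bra016719.

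For every one of the 1342 raised and 899 lowered genes, the deposited 95% confidence interval of silique did not overlap that of any vegetative sample. The rule itself favours this outcome, since it asks for a wide gap between the values. Values listed at 0 can also carry bounds of 0, as for Bra025046. The share over all genes was not counted, so this is not read as a trait of the called genes. What these bounds contain was not tested, and with 1 library of silique they hold no spread between siliques. A test with limma on log2(FPKM + 1) took its spread from the leaf and root pairs, each of samples from separate batches of plants. Silique and stem, with 1 sample each, were assumed to vary like these pairs. Over the 29410 genes that reached an FPKM of 1 in any of the 6 samples, 4739 genes (16.1%) were higher in silique than the mean of leaf, root and stem at an adjusted p under 0.05, and 6848 (23.3%) were lower. Single organs gave 5815 genes (19.8%) higher and 5254 (17.9%) lower against leaf, 4665 (15.9%) and 6431 (21.9%) against root, and 3974 (13.5%) and 5846 (19.9%) against stem. Past the threshold against all 3 organs, 2880 genes (9.79%) were higher and 2022 (6.88%) were lower. Genes seen in silique alone enter this test through their level there, and when an FPKM of 1 was required in 2 samples the numbers were 1405 higher and 2456 lower. Without this stricter filter, 1328 of the raised and 856 of the lowered genes were among those past the threshold against all 3 organs. The test uses the same values as the rule and adds no independent support. The spread rests on 2 residual degrees of freedom. Across genes, the differences between samples correlate between leaf and root (0.61), so the pairs may not be independent. The 374 raised genes listed at 0 in all 5 vegetative samples have no measured spread of their own. Their p-values rest on the spread that limma borrows from other genes. The median log2 difference from the mean over all tested genes was -0.27, and -0.09 after scaling by median ratios. With leaf 1, leaf 2, root 1 or root 2 left out, the genes higher than the mean numbered 3012, 2989, 3221 and 3282, and those lower 3328, 3668, 3875 and 4430.

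The rule was then applied to 1 organ at a time. At least 4-fold above all samples of the organ were 2398 genes (6.28%) against leaf, 2124 (5.56%) against root and 2263 (5.92%) against stem. At least 4-fold below were 2642 (6.92%) against leaf, 3357 (8.79%) against root and 3571 (9.35%) against stem. Lowered genes thus outnumbered raised ones against each organ as deposited, but after scaling by median ratios this held for leaf (2387 raised, 3079 lowered) and root (2460 and 3048) and turned round for stem (2871 and 2406). Against all 5 samples together, raised genes outnumbered lowered ones under both scalings. A raised gene needs signal in silique alone, whereas a lowered gene needs it in all 5 vegetative samples. With an FPKM of at least 1 required in 2 samples, the order turned round (507 raised, 899 lowered). All comparisons by organ share the silique sample, and stem has 1 sample where leaf and root have 2, which makes its rule easier to pass. A further 28950 genes were neither above nor below any organ. They include genes too low to be called, since only 29410 of the 38200 genes reached an FPKM of 1 in any of the 6 samples.

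**Figure D3:**
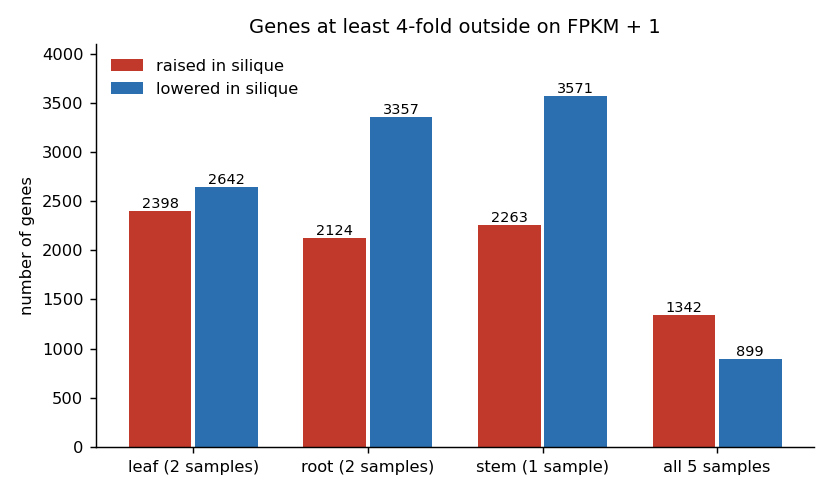
Number of genes whose FPKM + 1 in silique was at least 4-fold above (red) or below (blue) all samples of leaf, of root, of stem, and all 5 vegetative samples together. With values as deposited the lowered genes are more numerous against single organs, up to 3571 against stem (an excess that turns round there after median ratio scaling), and against all 5 samples the raised genes are, with 1342 against 899. This last order turns round when an FPKM of at least 1 is required in 2 samples (507 raised, 899 lowered).

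Many genes set silique apart from some vegetative organs and not from others. Silique was 4-fold above leaf and stem but neither above nor below root for 493 genes, whose median FPKM was 17.2 in silique, 8.19 and 7.33 in the root samples, and from 0.690 to 1.29 in leaf and stem. The opposite profile, 4-fold below leaf and stem and not apart from root, was shown by 727 genes, with medians of 0.980 in silique and of 2.39 and 1.87 in the root samples, against 32.1 and 24.6 in the leaf samples and 23.7 in stem. Another 735 genes were 4-fold below root and stem and not apart from leaf, and 1587 were below root alone. The medians of these profiles reflect how the genes were chosen.

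A smaller group put silique between organs. For 215 genes silique was at least 4-fold above both root samples and at least 4-fold below both leaf samples. Their median FPKM was 20.8 in silique, 227 and 232 in leaf, 53.8 in stem, and 0.534 and 0.351 in root. They made up 12.4% and 17.9% of the summed FPKM of the leaf samples, 1.25% of that of silique and 2.90% of that of stem. The choice of genes fixed the order of leaf, silique and root. In flower, which the rule did not use, the median was 44.3, and it was 15.97 in callus. The reverse, above leaf and below root, held for 11 genes. Which processes these genes serve cannot be read from the table without names.

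Flower and callus, which the rule left out, were then examined. An FPKM of at least 1 in flower was seen for 654 raised genes (48.7%, 95% Wilson interval 46.1% to 51.4%). In callus it was seen for 453 raised genes (33.8%, 31.3% to 36.3%). These intervals treat genes as draws and cover no spread between plants. Since the rule chose raised genes for low vegetative levels, their shares are not set against genes at large. Detected in both tissues were 381 raised genes, in flower and not callus 273, in callus and not flower 72, and in neither 616 (45.9%).

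Levels in flower and callus varied widely among raised genes. The FPKM in flower exceeded that in silique for 109 of them, and for 382 flower was within 4-fold of silique or above it. Callus exceeded silique for 54 raised genes and was within 4-fold of it or above for 222. For 960 raised genes flower was at least 4-fold below silique, and for 1120 callus was. The rule chose these genes for high levels in silique, which favours lower values in the tissues it did not use. In flower the raised genes held 5.34% of the summed FPKM and in callus 2.47%. In all 7 other samples, flower and callus included, 573 raised genes (42.7%) were under FPKM 1. These had a median FPKM of 11.7 in silique, 99 of them exceeded 50, and they held 10.2% of its summed FPKM.

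By the rule, lowered genes are present in every vegetative sample, so their detection elsewhere is likewise given alone. An FPKM of at least 1 was seen for 689 of the 899 (76.6%, 73.8% to 79.3%) in flower and for 772 (85.9%, 83.4% to 88.0%) in callus. Their median level in flower was 4.21, against 18.4 to 36.6 in the vegetative samples. Flower was below the lowest vegetative sample for 738 of the lowered genes, and for 601 it was within 4-fold of silique or below it. Callus had a median of 9.29 and was below the lowest vegetative sample for 554. For 117 lowered genes callus was above every vegetative sample, and for 36 flower was. The rule chose these genes for vegetative levels above silique, which favours lower values in any tissue it did not use. The counts below the vegetative samples are therefore not read as a loss shared with silique.

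**Figure D4:**
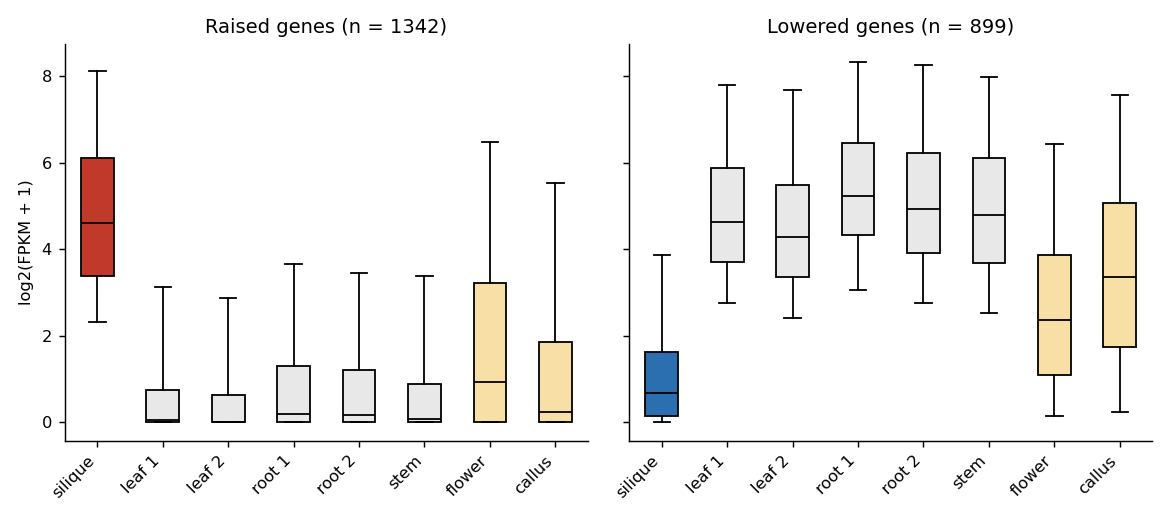
Levels of the 1342 raised (left) and 899 lowered (right) genes in 8 samples, as log2(FPKM + 1). Boxes show the median and quartiles and whiskers the 5th and 95th percentiles over genes. Silique is coloured red or blue, vegetative samples are grey, and flower and callus, which the rule did not use, are yellow. The rule fixed the order of silique and the vegetative samples, and the median in flower is 0.907 for raised and 4.21 for lowered genes.

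Raised genes lay at shorter loci than genes at large. The median locus span in the table was 1442 bases for raised genes (quartiles 822 and 2306), 1673 for lowered genes (1045 and 2669) and 1780 for all genes (1091 and 2835). Of the 2387 genes at loci under 500 bases, 147 were raised (6.16%) and 32 were lowered (1.34%). The share raised was smaller in each longer class, 4.66% from 500 to under 1000 bases, 3.71% from 1000 to under 2000, 2.87% from 2000 to under 4000 and 1.84% from 4000 bases up. The share lowered ran between 1.34% and 3.03% with its highest value from 500 to under 1000 bases. A given FPKM rests on fewer fragments at a short gene. Raised genes had a median of 211 implied fragments in silique, the lowest had 8, and 4 had under 10. The part of fragment number in the relation to length was not tested.

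Along the scaffolds most called genes stood alone (1130 raised and 794 lowered), but they lay beside a gene of their kind more often than other genes did. A gene directly before or after on the same scaffold was also raised for 212 of 1336 raised genes (15.9%, 95% Wilson interval 14.0% to 17.9%), whereas 6.45% of the other genes lay beside a raised gene. For lowered genes the numbers were 105 of 895 (11.7%, 9.79% to 14.0%) and 4.396%. The intervals treat genes as separate draws. Lying beside a gene of the same kind is mutual, so they are likely too narrow. Raised genes lay beside a lowered gene in 60 cases (4.49%), close to the 4.396% for genes that were not lowered. Neighbouring genes can be copies of each other, and reads of near-identical copies cannot be placed uniquely, so counts of such pairs are uncertain. Of all genes 387 (1.01%) share a locus with another, among them 13 raised and 2 lowered genes.

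Raised genes formed 84 runs of 2, 12 runs of 3 and 2 runs of 4 neighbours. The first run of 4 spans Scaffold000051 from 885486 to 918754. Its genes had an FPKM of 8.77, 15.3, 72.6 and 137 in silique, and all 4 were listed at 0 in the other 7 samples except for 0.140 of the second in root 2. The first and second of them share a locus, so their reads may not be separable. The second gene before the run had 2.85 in silique and 0 in the other 7 samples, which is under 4-fold on FPKM + 1. The gene that follows directly after the run had 51.5 in silique and from 29.0 to 97.4 in the vegetative samples, so the profile ended there.

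The second run of 4 spans Scaffold000092 from 845100 to 855387. The FPKM in silique was 55.5, 43.2, 216 and 80.8 along the run, and the fold over the highest vegetative sample on FPKM + 1 was 28.5, 22.8, 19.7 and 22.5. The genes with 43.2 and 216 share a locus. The latter reached 9.99 in leaf 2 and 1.01 in leaf 1, and the last gene had 18.5 in flower and 28.0 in callus, where the others were under 1.

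**Figure D5:**
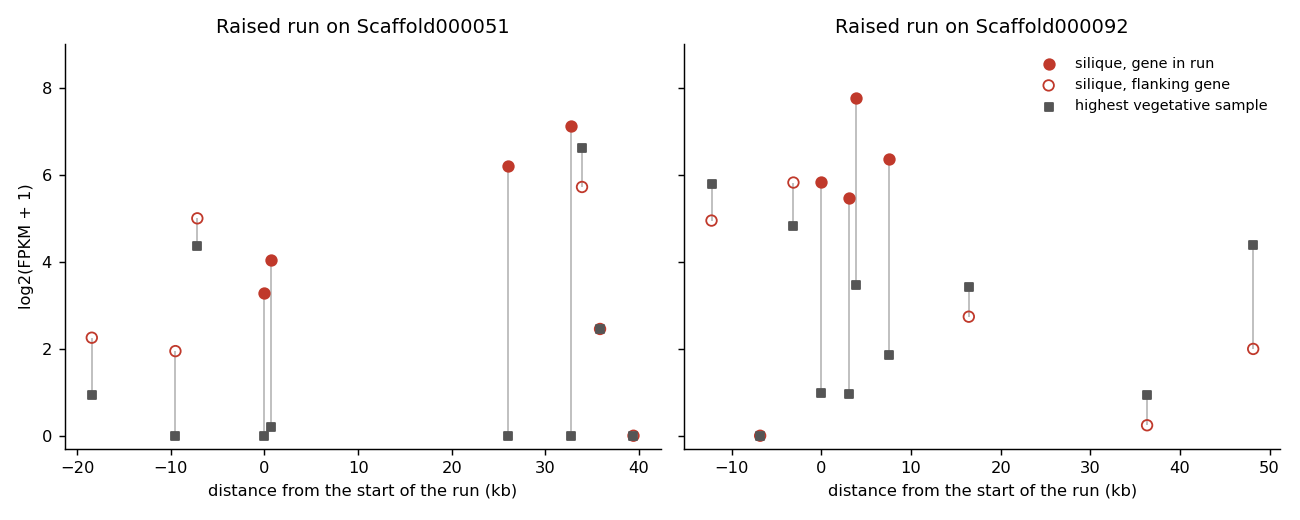
Genes along the 2 runs of 4 neighbouring raised genes, with up to 3 flanking genes on either side. The horizontal axis gives the distance from the start of the run in kilobases and the vertical axis log2(FPKM + 1). Filled circles are silique levels of genes in the run, open circles those of flanking genes, and squares the highest vegetative sample. Where genes share a locus, the second is drawn slightly to the right. Silique and vegetative levels are far apart within the runs and closer at most flanking genes.

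Lowered genes formed 48 runs of 2 and 3 runs of 3, and no longer run. On Scaffold000010 from 3687618 to 3707424, the FPKM in silique was 0.468, 0.304 and 6.08, and the third gene had from 208 to 496 in the vegetative samples, 325 in callus and 3.56 in flower. On Scaffold000038 from 1032182 to 1047253, all 3 genes were listed at 0 in silique and had from 4.94 to 43.6 in the vegetative samples, at most 0.289 in flower and at most 5.63 in callus. On Scaffold000190 from 4042 to 19169, the FPKM in silique was 0.214, 6.25 and 13.6 and in flower 0.178, 0.576 and 1.70, whereas callus had 17.5, 69.0 and 66.2. On the latter scaffold flower was below silique at all 3 genes. Directly before the run on Scaffold000190, from 3404 to 3779, lies a gene of the opposite kind, with an FPKM of 47.2 in silique and 0 in the other 7 samples.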

How the data were processed

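Poly(A)+ RNA of 8 samples was sequenced in pairs of reads. The authors deposited FPKM values per gene model with 95% confidence bounds in one table for 38200 genes on 423 scaffolds. The study's methods describe trimming, mapping with TopHat and estimation of FPKM by Cufflinks on reads with 1 mapping position. The submitters' processing notes name TopHat 1.0.13 and the study's methods a later version, and the table names neither tool nor build, so whether it comes from the run the methods describe is not known. Its 4 columns for names and transcripts are empty. Its first line ties each column to a sample name.

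Raised and lowered genes were called on FPKM + 1 at 4-fold over all 38200 genes. Members and rules were chosen with earlier results of these data known. limma 3.58.1 in R 4.3.3 (lmFit, eBayes with a mean-variance trend) was fitted to log2(FPKM + 1) of 6 samples, with Benjamini-Hochberg adjustment over 29410 genes. Implied fragments are 4 times the squared ratio of FPKM to the distance to its upper bound, leaving out values with a distance under 0.001 of FPKM. They hold if the intervals cover counting error alone. Python 3.11.15, pandas 2.3.3, numpy 2.4.6, scipy 1.17.1 and matplotlib 3.10.9 were used. Both calculations were run on simulated data as a check of the code. For the fold rule these data held changes beyond its minimum, only in abundant genes and with little noise. How the rule fares on low genes was therefore not tested.

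Genes named were the raised gene highest in silique, the raised gene with the largest fold among those with FPKM of at least 1 in every vegetative sample, the lowered gene with the highest vegetative minimum and the lowered gene with the next largest fold. Regions were the longest runs of neighbours. Marker and pathway lists were not used, as names were at hand for 1 identifier, and no sequence was used here. Alternatives covered pseudocounts, fold minimum, scaling, filters, the confidence intervals, organ means, the samples included, the replicate block and each leaf and root sample left out in turn.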

Additional observations from a re-analysis of the deposited data

How the results depend on the processing

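Counts by the fold rule moved with the pseudocount, the fold minimum and the filter. With a pseudocount of 0.1 there were 2649 raised and 2139 lowered genes, with a pseudocount of 5 there were 682 and 282, with a minimum of 2-fold 2812 and 2348, and with 8-fold 776 and 354. Asking for an FPKM of at least 1 in 2 samples left 507 raised genes and all 899 lowered ones, since it removes genes detected in silique alone. The share of raised genes among those called, 59.9%, became 70.7% with a pseudocount of 5 and 36.1% with this filter. Scaling by median ratios, to the upper quartile or without the 4 highest genes of each sample gave 1431 to 1537 raised and 836 to 921 lowered genes, and leaving out a leaf or root sample gave 1356 to 1421 and 906 to 1096. Median ratio scaling moved the median log2 difference of silique from the organs over all tested genes from -0.27 to -0.09. The same scaling, applied to single organs after seeing the data, turned the excess of lowered genes against stem into one of raised genes (2871 against 2406). In limma, leaving out a leaf or root sample gave 2989 to 3282 genes higher and 3328 to 4430 lower than the mean of the organs, and 2034 to 2116 higher and 506 to 590 lower than each organ. This leaves 1 residual degree of freedom, and the lone sample is assumed to vary like the other pair. Against each organ, the filter in 2 samples gave 1405 genes higher and 2456 lower, and a pseudocount of 5 gave 1289 lower. With the sample number of leaf and root as a replicate block, 6545 genes were higher and 10577 lower than the mean, and 3771 higher and 4023 lower than each organ. Silique and stem carry no number and were set at its midpoint. The numbers go together across organs (correlation of the leaf and root differences between samples 0.61 across genes), but the labels do not say that they mark a shared batch.

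The share of summed FPKM in raised genes was 21.4% at 8-fold, 25.9% with median ratio scaling and 21.0% without Bra025046, a step chosen after seeing the data. At 8-fold, 45.6% of raised genes were detected in flower and 28.1% in callus, 89.8% of lowered genes were detected in callus, and 11.7% of raised and 9.09% of lowered genes had a neighbour called the same way. Counting genes at one locus once, also chosen after seeing the data, gave 15.8% and 11.96%. Silique has 1 library, so no alternative could test the spread between siliques.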
